A study of Sus scrofa with 3 samples.

Results

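The kidney of castrated pigs was compared with that of intact pigs of the same breed and diet, gene by gene, across every gene counted well enough to compare. Of 34570 genes in the count table, 15472 reached a mean CPM (counts scaled to a common library size) of at least 1 over the 3 libraries of the study and are described here. The animals were Chinese Wuzhishan pigs, a small breed, 6 to 7 months old, and the diet of every group was high in fat and cholesterol. IM denotes intact males, CM castrated males, and CMT castrated males given testosterone replacement. Kidney RNA of 3 pigs was mixed in equal amounts for each group, so the 9 pigs gave 3 pools, and the count table has 1 column for each. The design text speaks of triplicates; whether it means the 3 pigs of a pool or repeat libraries was not settled, and each column is treated here as 1 library. No group had a lean-diet counterpart, hormone levels, the testosterone dose and the time since castration are not known from the sources used here, and a pool of 3 animals gives no spread between animals. A difference between CM and IM is therefore a difference between 2 pools, and its interval covers counting error only.

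The mammalian kidney is a target of testicular steroids. Among its responsive parts is the proximal tubule, the segment that takes back most of the filtered sugar, amino acids, phosphate and bicarbonate, secretes organic anions, makes glucose and ammonia, and breaks down steroids and drugs. In rodents many transporters and metabolic enzymes of this segment differ between the sexes and after castration, and the genes concerned differ between species. Castration removes the testes as the source of testosterone and, in the boar, of large amounts of estrogens and pheromonal steroids.

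The libraries held 16459771 counts for IM, 18503537 for CM and 13601475 for CMT. Levels are CPM scaled with TMM factors (trimmed mean of M-values, which sets libraries to a common level over most genes). A gene was called higher or lower in CM when the whole 95% interval of its ratio of scaled counts lay beyond 2-fold; intervals stand in parentheses after each fold or ratio. By this rule 185 genes (1.2% of the 15472) were higher in CM and 235 (1.52%) were lower. These shares are the measure for every count of called list members below, also where they are not repeated. In 100 genes they amount to 1.2 higher and 1.52 lower genes. A list of that size or smaller with 0 or 1 called gene is therefore near them and shows nothing particular to the list. The scaling places the centre of the distribution near 0, so the centre cannot show a change common to most genes. The median log2 fold over all compared genes was -0.01, and 7626 of them (49.3%) lay above 0. Most genes differed little, with 63.2% of the ratios within 1.25-fold and 93.4% within 2-fold. At the far ends, 20 genes lay beyond 20-fold on the higher side and 22 on the lower side. The called genes took 0.283% of the IM counts and 1.15% of the CM counts on the higher side, and 4.36% of the IM counts and 1.53% of the CM counts on the lower side.

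**Figure D1:**
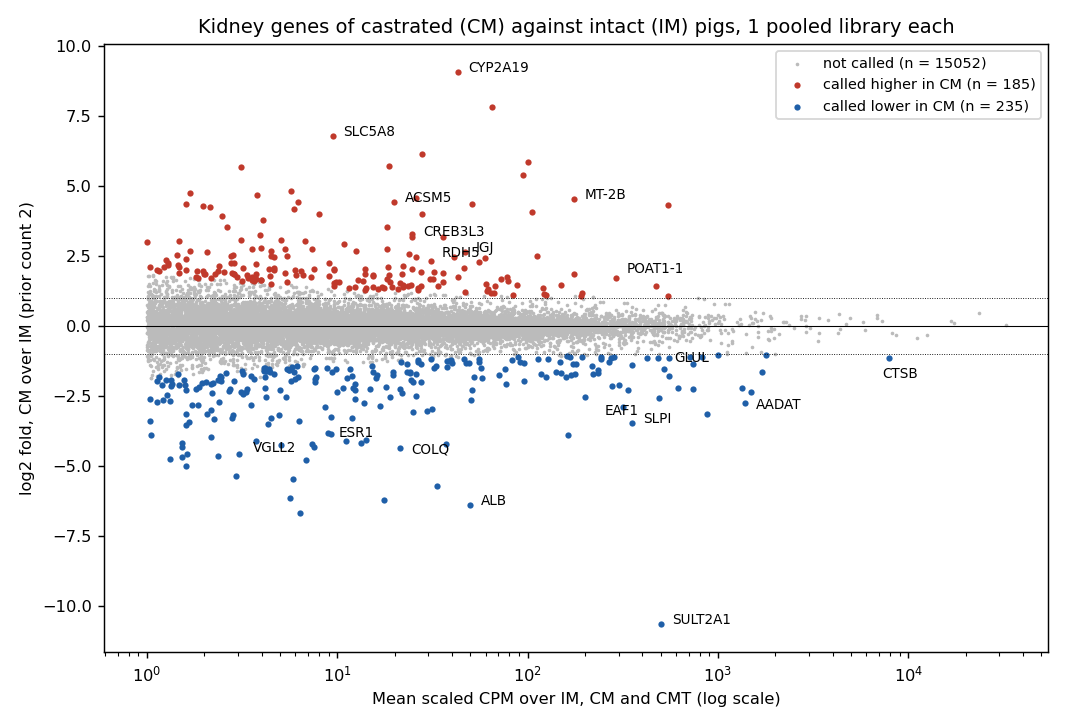
Log2 fold of CM over IM (vertical axis, prior count of 2) against the mean scaled CPM of the 3 libraries (horizontal axis, log scale), 1 point per gene, for 15472 genes. The 185 red and 235 blue points are genes called higher and lower in CM, the dotted lines mark 2-fold, and SULT2A1 is the lowest point.

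The directions were not spread evenly over the range of counts. Among the 496 genes with a mean of 300 CPM or more, 25 (5.04%) were lower in CM and 3 (0.605%) were higher. Among the 1223 genes between 100 and 300 CPM, 27 were lower and 11 higher. Below 100 CPM the 2 directions were close, as in the range of 10 to 30 CPM, where 43 of 3921 genes were lower and 46 higher. CPM are not divided by gene length, so these ranges also sort genes by the length of their transcripts. The mean that sets the range holds the compared libraries and CMT. A gene low in CM alone therefore stays in a high range through the other libraries, while a gene high in CM alone is drawn to a lower range. How much of the difference between the directions comes from this sorting was not tested. The genes with a symbol that were lower in CM at 300 CPM or more were for the most part enzymes and secreted proteins: SLPI, CYP2C42, SULT2A1, GPC3, GLUL, TF, NAT8, EAF1, HSD17B4, HPD, ADH1C, CYP4A21, PM20D1, GGT1, CYP4A24, AADAT, CYP2C33 and CTSB.

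**Figure D2:**
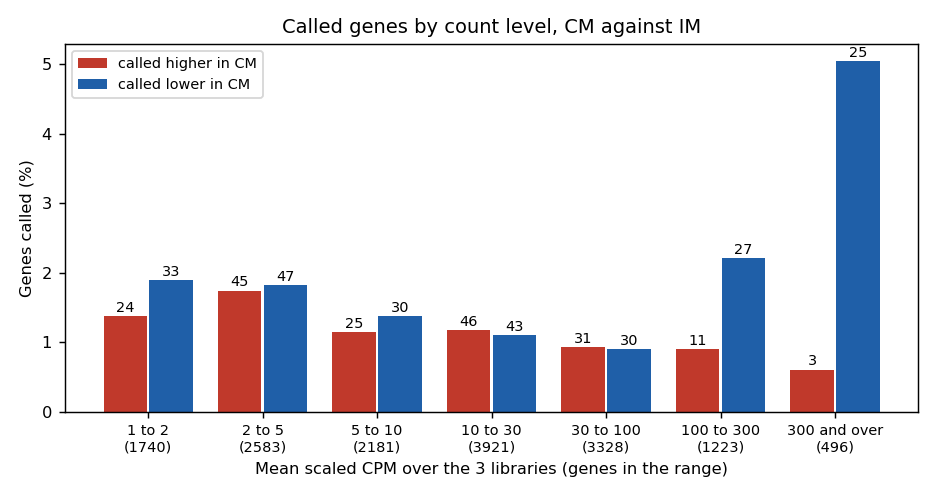
Share of genes called higher (red) and lower (blue) in CM, in percent of the genes in each range of mean scaled CPM; the number on each bar counts the called genes and the number in parentheses the genes of the range. The lower share is 5.04% at 300 CPM and over, against 0.605% for the higher share.

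The libraries carried the markers of kidney, some of which differed between them. LRP2 (megalin, the endocytic receptor of the proximal tubule) stood at 152 CPM in IM, 163 CPM in CM and 132 CPM in CMT. UMOD (uromodulin, made by the thick ascending limb) stood at 5715 CPM in IM, 6907 CPM in CM and 7978 CPM in CMT, a ratio of CM to IM of 1.21 (1.2 to 1.22). AQP2 (the water channel of the collecting duct) had a ratio of 0.981 (0.93 to 1.03). Of 31 proximal tubule markers, 27 were not called, SLC22A7, POAT1-1 and SLC5A10 were higher and GGT1 was lower. The summed level of the 31 was 29862 CPM in IM, 28040 CPM in CM and 37801 CPM in CMT. Most of the difference between these sums came from 1 marker, PCK1, at 6824 CPM in IM, 5387 CPM in CM and 13703 CPM in CMT. The loop of Henle, distal convoluted tubule, principal cell and intercalated cell lists each held 1 lower marker (TMEM207 of 11, PVALB1 of 10, KCNE1 of 12 and SLC26A4 of 13) and no higher one. The distal convoluted tubule list had a median log2 fold of -0.26, with 7 of 10 below 0. All 12 podocyte markers, all 12 endothelial markers and all 16 stromal and mesangial markers compared were not called. A lower level in tissue RNA can come from fewer cells of a type or from less RNA per cell, and these cannot be told apart here. No adrenal cortex marker reached the level for comparison.

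Genes that make, inactivate or bind steroids held the most extreme change of the comparison. SULT2A1, the sulfotransferase that attaches sulfate to DHEA and other hydroxysteroids, was read 5929, 2 and 15219 times in IM, CM and CMT. Its scaled level was 3385-fold (937 to 27954) lower in CM, and its 2 counts in CM set the width of that interval. Of 26 steroid-metabolising enzymes compared, 3 were higher in CM and 3 lower, beside 1.2% and 1.52% of all compared genes. The other 20 were not called, and the median log2 fold of the 26 was 0.17. HSD17B6, a dehydrogenase of reduced androgen metabolites, stood at 25.8 CPM in IM, 4.02 CPM in CM and 121 CPM in CMT, and was 6.43-fold (5.03 to 8.32) lower. HSD17B4, named in this family but known mainly for peroxisomal fatty acid oxidation, stood at 724 CPM in IM, 210.4 CPM in CM and 715 CPM in CMT, and was 3.44-fold (3.32 to 3.57) lower. CM was the lowest of the 3 libraries for all 3 of these enzymes.

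The higher steroid enzymes included 2 that act on testosterone itself. HSD17B2, which inactivates testosterone and estradiol by oxidation, stood at 21.2 CPM in IM, 89.2 CPM in CM and 27.6 CPM in CMT, and was 4.21-fold (3.75 to 4.73) higher in CM. ST5AR2, the table's symbol for steroid 5-alpha-reductase 2, which makes dihydrotestosterone, was read 5, 62 and 11 times and was 10.9-fold (4.41 to 34.6) higher, a change resting on 5 counts in IM. CYP27A1, a mitochondrial enzyme that hydroxylates the side chain of sterols, stood at 5.68 CPM in IM, 51.8 CPM in CM and 16.8 CPM in CMT, and was 9.13-fold (7.38 to 11.4) higher. Other members did not pass the rule. STS, the sulfatase that undoes the work of sulfotransferases, had a ratio of CM to IM of 1.82 (1.69 to 1.96), and HSD11B2, which inactivates cortisol in the collecting duct, a ratio of 1.12 (1.09 to 1.15).

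Among 33 nuclear receptors compared, ESR1 was the only called gene. ESR1, estrogen receptor alpha, was read 252, 18 and 140 times, stood at 15.2 CPM in IM, 0.952 CPM in CM and 10.6 CPM in CMT, and was 16-fold (9.91 to 27.4) lower in CM. NR3C1, the glucocorticoid receptor, had a ratio of 1.0 (0.90 to 1.11) and NR3C2, the mineralocorticoid receptor, of 1.12 (0.831 to 1.51). NR1H4, the bile acid receptor, was nearest to the rule among the rest at 0.491 (0.441 to 0.546). None of the 28 nuclear receptor coregulators was called. Of 44 genes listed as androgen-responsive in other tissues, 2 were lower and 0 higher, with a median log2 fold of -0.04. IDI1, which isomerises isopentenyl diphosphate for sterol synthesis, was 11-fold (5.71 to 23.6) lower, and ELL2, a transcription elongation factor, was 2.69-fold (2.33 to 3.11) lower.

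Of 18 genes known to respond to androgen in the rodent kidney, 1 was higher and 2 were lower in CM. The shares over all compared genes were 1.2% and 1.52%. The higher one was POAT1-1, the table's symbol for the basolateral organic anion transporter 1, which takes up drugs and uraemic solutes from blood, at 149 CPM in IM, 484 CPM in CM and 237 CPM in CMT, 3.25-fold (3.11 to 3.4) higher in CM. ADH1C, an alcohol dehydrogenase, stood at 823 CPM in IM, 317 CPM in CM and 1063 CPM in CMT, and was 2.6-fold (2.52 to 2.68) lower. MEP1B, a subunit of the brush border protease meprin, stood at 74.4 CPM in IM, 32.8 CPM in CM and 32.1 CPM in CMT, and was 2.27-fold (2.06 to 2.5) lower. ODC, the table's symbol for ornithine decarboxylase, the first enzyme of polyamine synthesis and a classic androgen-induced gene of mouse kidney, had a ratio of 0.931 (0.878 to 0.987). PRLR, the prolactin receptor, was read 96, 264 and 106 times, and its ratio of 2.41 (1.9 to 3.08) did not clear 2-fold with its whole interval. SAL1, the lipocalin that carries pheromonal steroids in the boar, stood at 164 CPM in IM, 283 CPM in CM and 2958 CPM in CMT, a ratio of CM to IM of 1.72 (1.64 to 1.8). SAL1 was named after its values were seen.

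**Figure D3:**
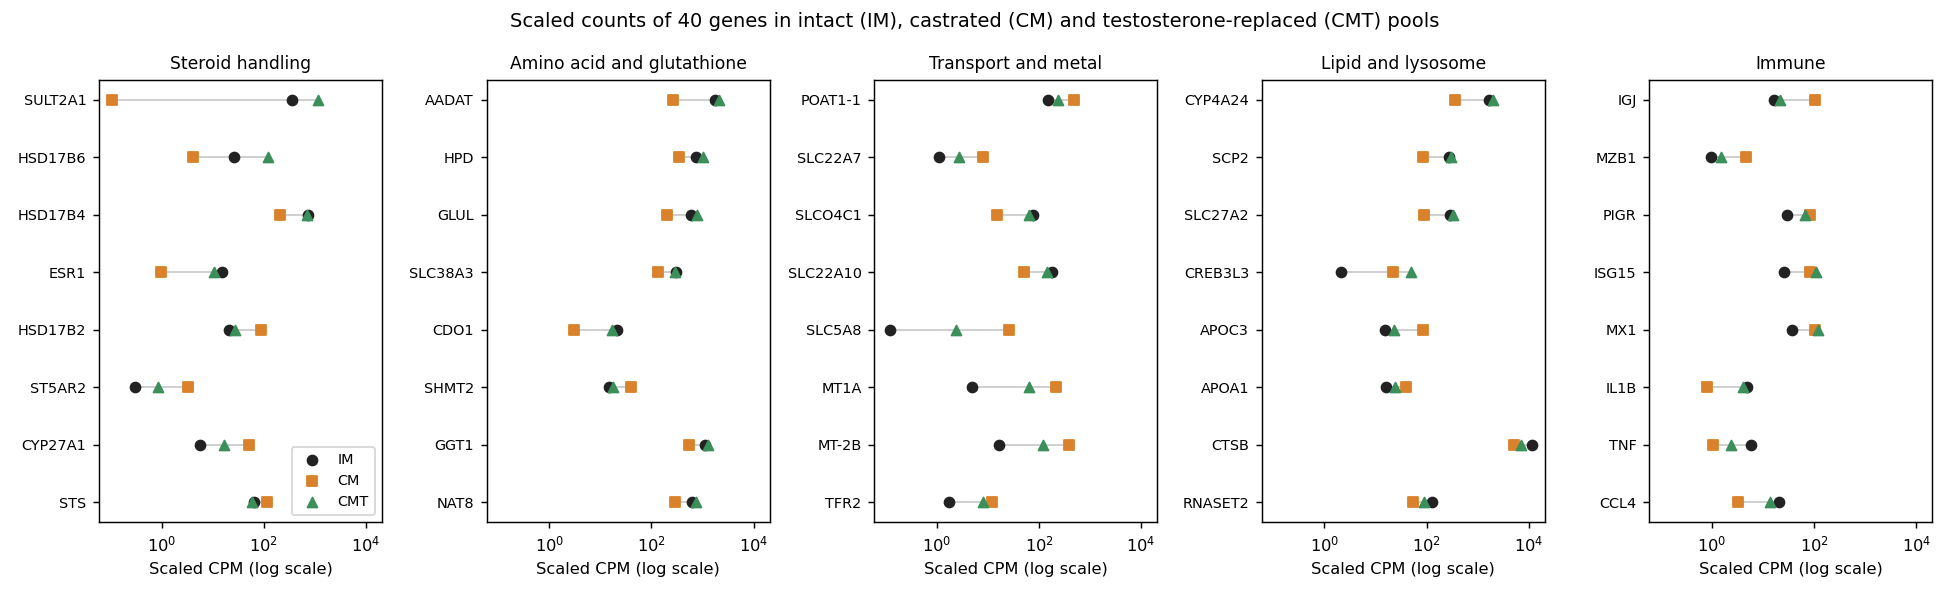
Scaled CPM (horizontal axis, log scale) of 40 genes in IM (circles), CM (squares) and CMT (triangles), 1 pooled library each, with grey lines joining the lowest and highest library. SULT2A1 spans the widest range, and CM is the lowest library for AADAT, GLUL, CYP4A24 and CTSB and the highest for POAT1-1, MT1A and IGJ.

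Of the enzymes of amino acid use, those called were for the most part lower in CM. AADAT, an aminotransferase of kynurenine and of aminoadipate from lysine, stood at 1781 CPM in IM, 261 CPM in CM and 2103 CPM in CMT, and was 6.82-fold (6.62 to 7.03) lower in CM. It was the only called gene of 18 in the tryptophan and kynurenine pathway, whose median log2 fold was -0.39. Of these, 13 lay below 0 and 5 above, the highest at a log2 fold of 1.145. The enzymes named next were picked from the members below 0 and stood short of the rule. The ratio of CM to IM was 0.61 (0.573 to 0.65) for ACMSD, 0.659 (0.623 to 0.698) for KMO and 0.667 (0.633 to 0.703) for CCBL1, a kynurenine aminotransferase. For IDO2 the ratio was 0.651 (0.509 to 0.831).

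In the breakdown of tyrosine, lysine, histidine and glutamine, 3 of 27 genes were lower, beside 1.52% of all compared genes, and none was higher. Apart from AADAT these were HPD and GLUL. HPD, which oxidises hydroxyphenylpyruvate from tyrosine, stood at 762 CPM in IM, 352 CPM in CM and 1017 CPM in CMT, and was 2.16-fold (2.1 to 2.23) lower in CM. The next enzymes of the same route, HGD and FAH, had ratios of 0.639 (0.608 to 0.671) and 0.655 (0.635 to 0.676). GLUL, glutamine synthetase, stood at 584 CPM in IM, 202 CPM in CM and 770.2 CPM in CMT, and was 2.89-fold (2.79 to 3.0) lower. SLC38A3, a basolateral glutamine transporter that feeds ammonia production, stood at 299 CPM in IM, 137 CPM in CM and 287 CPM in CMT, and was 2.18-fold (2.08 to 2.28) lower. It was the only called gene of 35 amino acid and peptide transporters, whose median log2 fold was -0.20 with 22 below 0.

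Of 43 sulfur, glycine and one-carbon genes, 1 was higher and 2 were lower, beside 1.2% and 1.52% of all compared genes, and 40 were not called. CDO1, cysteine dioxygenase, the first step from cysteine to taurine, was read 351, 57 and 226 times and was 7.03-fold (5.3 to 9.47) lower in CM. SHMT2, the mitochondrial enzyme that splits serine into glycine and a one-carbon unit, stood at 14.6 CPM in IM, 40.3 CPM in CM and 17.9 CPM in CMT, and was 2.77-fold (2.39 to 3.21) higher. MTHFD2, which acts on the folate product of that reaction, stood at 7.19 CPM in IM, 2.33 CPM in CM and 7.25 CPM in CMT, and was 3.09-fold (2.17 to 4.47) lower. GCAT, which yields glycine from threonine and lies outside the lists, was 3.97-fold (2.95 to 5.44) higher. Neither the 31 genes of branched-chain amino acid and propionate breakdown nor the 34 of arginine, creatine, proline and polyamine metabolism held a called gene. GATM, the first enzyme of creatine synthesis, stood at 2628 CPM in IM, 1324 CPM in CM and 2041 CPM in CMT, a ratio of 0.504 (0.496 to 0.512).

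GGT1, LAP3 and NAT8, which handle glutathione and its conjugates, were lower in CM. GGT1, the brush border enzyme that cuts glutathione and its conjugates, stood at 1140 CPM in IM, 552 CPM in CM and 1293 CPM in CMT, and was 2.06-fold (2.02 to 2.11) lower in CM, a call lost under scaling by total counts. LAP3, a leucine aminopeptidase, stood at 234 CPM in IM, 109 CPM in CM and 232 CPM in CMT, and was 2.16-fold (2.05 to 2.28) lower. NAT8, which acetylates the resulting cysteine conjugates to mercapturic acids, stood at 632 CPM in IM, 285 CPM in CM and 740.4 CPM in CMT, and was 2.21-fold (2.14 to 2.29) lower. GGT1 and LAP3 were the only called genes of 25 in the list of glutathione transferases and glutathione synthesis. BBOX1, the last enzyme of carnitine synthesis, lies outside the lists and was 2.17-fold (2.05 to 2.29) lower.

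Cytochrome P450 genes, which oxidise drugs, steroids and fatty acids, were called more often than the average gene: 4 of 25 were higher and 5 lower, beside the 1.2% and 1.52% of all compared genes. CYP2A19, a drug-oxidising P450 of the pig, was read 2, 2411 and 14 times and was 1056-fold (292 to 8724) higher in CM, a ratio resting on 2 counts in IM. CYP2B22, its neighbour in the genome and a member of the phenobarbital-inducible subfamily, was read 33, 223 and 33 times and was 5.92-fold (4.09 to 8.81) higher. CYP4F2, a hydroxylase of vitamin E, vitamin K and leukotrienes, stood at 77.2 CPM in IM, 198 CPM in CM and 85.1 CPM in CMT, and was 2.56-fold (2.4 to 2.73) higher. CYP27A1, given with the steroid enzymes, was the fourth.

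The lower P450 genes belonged to 2 subfamilies. CYP4A24 and CYP4A21 hydroxylate the ends of fatty acids. The former stood at 1674 CPM in IM, 358 CPM in CM and 1994 CPM in CMT, and was 4.68-fold (4.55 to 4.8) lower in CM. CYP4A21 was 4.81-fold (4.64 to 4.99) lower. Of the CYP2C genes, which act on drugs and arachidonic acid, CYP2C36 was 4.4-fold (4.15 to 4.67) lower, CYP2C42 4.33-fold (4.09 to 4.59) and CYP2C33 2.04-fold (2.01 to 2.08); the call of CYP2C33 was lost under scaling by total counts. CM was the lowest library for all 5. The genes within each subfamily are related in sequence, to a degree not measured here. How reads were divided among them is unknown, which makes the value of a single gene uncertain.

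Conjugating and carbonyl-reducing enzymes were called in both directions. UGT1A10, which attaches glucuronic acid, was read 133, 24 and 45 times and was 6.33-fold (4.07 to 10.2) lower in CM. With SULT2A1 it made 2 lower genes of 12 glucuronosyltransferases and sulfotransferases, with 0 higher. TPMT, which methylates thiopurine drugs, was 3.2-fold (2.71 to 3.79) lower. Of 44 aldehyde, alcohol and keto reductases, 3 were higher and 4 lower, beside 1.2% and 1.52% of all compared genes. RDH5, a retinol dehydrogenase, stood at 10.8 CPM in IM, 54.9 CPM in CM and 27.5 CPM in CMT, and was 5.08-fold (4.33 to 5.99) higher, while RDH11, a retinal reductase, stood at 297 CPM in IM, 99.6 CPM in CM and 302 CPM in CMT, and was 2.99-fold (2.83 to 3.15) lower. ALDH3A1, which oxidises aromatic aldehydes, was 3.8-fold (3.32 to 4.38) higher and AKR1E2, an aldo-keto reductase, 2.67-fold (2.22 to 3.22). CBR3, a carbonyl reductase, was 3.21-fold (2.62 to 3.95) lower and DHRS7, a short-chain reductase, 2.21-fold (2.11 to 2.31).

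Among 34 esterases, amidases, flavin monooxygenases and N-acyltransferases, 3 were higher and 2 lower, beside 1.2% and 1.52% of all compared genes. ACSM5, a mitochondrial medium-chain acyl-CoA synthetase, stood at 1.39 CPM in IM, 32.3 CPM in CM and 25.9 CPM in CMT, and was 23.2-fold (15.3 to 36.9) higher in CM. INMT, which methylates tryptamine and other amines, stood at 98.1 CPM in IM, 269 CPM in CM and 83.6 CPM in CMT, and was 2.74-fold (2.6 to 2.9) higher. FMO5, a flavin monooxygenase, was 2.24-fold (2.05 to 2.46) higher. TPMT and NAT8 were the lower ones.

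Genes of fatty acid oxidation and peroxisomes were called lower more often than higher, 6 against 1 of 73, beside 1.52% and 1.2% of all compared genes. The median log2 fold of the list was -0.08. Beside CYP4A21, CYP4A24 and HSD17B4, the lower ones were SCP2, ABCD4 and PDK4. SCP2, a peroxisomal thiolase and sterol carrier, stood at 277 CPM in IM, 83.9 CPM in CM and 298 CPM in CMT, and was 3.31-fold (3.12 to 3.5) lower in CM. ABCD4, named in the peroxisomal ABC family and known for lysosomal cobalamin export, was 3.82-fold (3.24 to 4.52) lower. PDK4, a kinase that shuts off pyruvate dehydrogenase, stood at 106 CPM in IM, 40.7 CPM in CM and 374 CPM in CMT, and was 2.6-fold (2.39 to 2.83) lower. The higher gene was CREB3L3, a membrane-bound transcription factor of lipid metabolism in liver and gut, at 2.11 CPM in IM, 21.7 CPM in CM and 50.4 CPM in CMT, 10.3-fold (7.28 to 15) higher in CM.

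Among apolipoproteins and genes of lipid storage and uptake, the calls leaned the other way. Of 54 genes, 7 were higher and 2 lower, beside 1.2% and 1.52% of all compared genes. The list as a whole did not: its median log2 fold was 0.07, with 30 genes above 0 and 24 below. Its summed level was 2827 CPM in IM, 2635 CPM in CM and 3203 CPM in CMT. The 4 apolipoprotein genes called all lie in 1 cluster: APOC3, an inhibitor of lipoprotein lipase, stood at 15 CPM in IM, 84.2 CPM in CM and 23.2 CPM in CMT, and was 5.6-fold (4.89 to 6.42) higher in CM. APOA1, the main protein of HDL, stood at 15.8 CPM in IM, 39.1 CPM in CM and 24.4 CPM in CMT, and was 2.47-fold (2.14 to 2.86) higher. APOA4 was read 3, 42 and 8 times and was 12.3-fold (3.92 to 61.8) higher, and APOA5 9, 57 and 4 times and 5.55-fold (2.73 to 12.7) higher, so both rest on few counts in IM. PLIN4, a lipid droplet coat protein, was 3.18-fold (2.69 to 3.77) higher, PNPLA3, a lipid droplet hydrolase, 2.6-fold (2.15 to 3.17), and GPIHBP1, which holds lipoprotein lipase on capillaries, 4.6-fold (2.13 to 11.3). PLIN4 and PNPLA3 are also 2 of the 8 adipocyte markers compared, of which 5 lay above 0, with a median log2 fold of 0.28. The summed level of these markers was 199.7 CPM in IM, 275 CPM in CM and 232 CPM in CMT. ADIPOQ and LEP had 0 counts in every library, and PLIN1 had 17, 13 and 23 counts. The part of fat cells in these values was not tested.

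The 2 lower genes of that list serve fatty acid uptake and binding. SLC27A2, a fatty acid transport protein and very-long-chain acyl-CoA synthetase, stood at 286 CPM in IM, 89 CPM in CM and 331 CPM in CMT, and was 3.21-fold (3.04 to 3.4) lower in CM. FABP3, the heart-type fatty acid binding protein, was 2.32-fold (2.06 to 2.61) lower. PM20D1, a secreted enzyme that joins fatty acids to amino acids, lies outside the lists and stood at 976 CPM in IM, 451 CPM in CM and 1053 CPM in CMT, 2.16-fold (2.11 to 2.22) lower. Of 42 genes of cholesterol synthesis, uptake and efflux, FDPS, which makes farnesyl diphosphate, was 2.25-fold (2.1 to 2.42) lower, as was IDI1, while CYP27A1 was the only higher one; the median log2 fold was -0.08. None of 53 sphingolipid, prostanoid and eicosanoid genes was called.

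**Figure D4:**
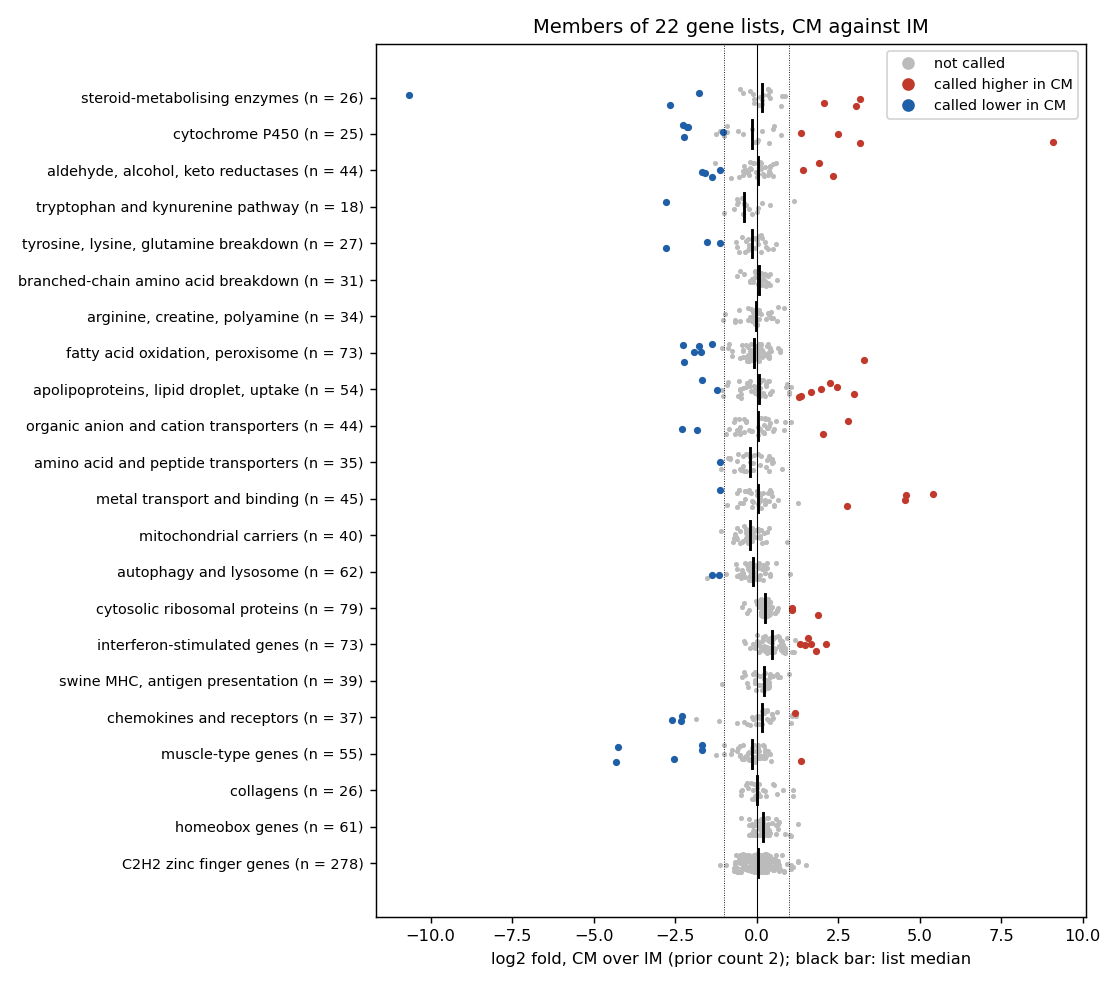
Log2 fold of CM over IM (horizontal axis, prior count of 2) of every compared member of 22 gene lists, with black bars at the list medians, dotted lines at 2-fold, and vertical scatter within a row added only to separate points. Called members sit at the edges of lists whose bulk lies near 0, as in the steroid enzymes, whereas the interferon-stimulated genes are shifted as a body to a median of 0.46.

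Transporters of the tubule changed as single genes. SLC5A8, a sodium-coupled transporter of lactate and other monocarboxylates, was read 2, 489 and 31 times and was 214-fold (59 to 1773) higher in CM, again on 2 counts in IM. SLC5A10, a mannose and fructose transporter of the proximal tubule, stood at 37 CPM in IM, 124 CPM in CM and 72.6 CPM in CMT, and was 3.36-fold (3.07 to 3.67) higher. SLC16A3, a lactate exporter, was 2.32-fold (2.1 to 2.57) higher. The lower members of that list of 32 came from the same monocarboxylate family: SLC16A13 was 3.89-fold (2.81 to 5.47) lower, SLC16A10, a carrier of aromatic amino acids and thyroid hormone, 3.18-fold (2.48 to 4.1), and SLC16A6 2.41-fold (2.13 to 2.72). The glucose carrier SLC5A2, target of gliflozin drugs, had a ratio of 0.669 (0.648 to 0.69).

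Organic anion and cation transporters held 2 higher and 2 lower genes of 44, beside 1.2% and 1.52% of all compared genes. SLC22A7, the organic anion transporter 2, was read 18, 154 and 36 times and was 7.49-fold (4.59 to 13) higher in CM. SLC13A4, a sulfate transporter, was read 18, 91 and 96 times and was 4.43-fold (2.65 to 7.8) higher. SLCO4C1, a basolateral carrier of digoxin and thyroid hormone, stood at 74.7 CPM in IM, 15.1 CPM in CM and 63.7 CPM in CMT, and was 4.93-fold (4.34 to 5.63) lower. SLC22A10, of the organic anion family, stood at 182 CPM in IM, 50.7 CPM in CM and 141 CPM in CMT, and was 3.59-fold (3.34 to 3.86) lower. SLC22A8, the partner of POAT1-1 at the basolateral membrane, had a ratio of 1.15 (1.13 to 1.16), and SLC22A12, the urate exchanger, of 0.848 (0.83 to 0.867).

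Metallothioneins, small proteins that bind zinc, copper and cadmium, were among the most raised genes. MT1A stood at 4.95 CPM in IM, 212 CPM in CM and 65 CPM in CMT, and was 42.9-fold (34.4 to 54) higher in CM. MT-2B stood at 16.4 CPM in IM, 387 CPM in CM and 122 CPM in CMT, and was 23.7-fold (20.9 to 26.8) higher, and MT-III was 24.7-fold (17.9 to 35.1) higher. IM was the lowest library for all 3, CM the highest, and CMT lay between. Their sequences are close to each other, so reads may have been divided among copies in an unknown way. TFR2, a transferrin receptor that senses iron, was read 28, 229 and 108 times and was 7.16-fold (4.83 to 11) higher, and TF, transferrin itself, stood at 626 CPM in IM, 285 CPM in CM and 547 CPM in CMT, and was 2.2-fold (2.13 to 2.27) lower. The other 40 of 45 metal transporters and binding proteins were not called.

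Lists of other ion transporters and channels held 1 or 2 called genes each, beside the 1.2% higher and 1.52% lower of all compared genes. SLC26A4 (pendrin), the chloride and bicarbonate exchanger of intercalated cells, was the only called gene of 41 sodium, chloride, bicarbonate, phosphate and sulfate transporters, at 42.3 CPM in IM, 10.4 CPM in CM and 29.9 CPM in CMT, 4.06-fold (3.46 to 4.78) lower in CM. The other 12 intercalated cell markers were not called, with ratios of 0.904 (0.757 to 1.08) for FOXI1, their transcription factor, and 1.12 (1.04 to 1.21) for SLC4A9, which sits in the same cells. KCNJ4, an inward rectifier, was 4.31-fold (2.29 to 8.8) higher and KCNE1, a channel subunit, 3.16-fold (2.13 to 4.8) lower, among 30 potassium channels. ASIC1, an acid-sensing sodium channel, was 3.7-fold (3.03 to 4.55) higher and CACNA1I, a T-type calcium channel, 3.6-fold (2.99 to 4.36), among 58 sodium, chloride, calcium and TRP channels. GJB1, a connexin, was 2.3-fold (2.18 to 2.42) lower, 1 of 52 junction genes. PVALB1, the table's parvalbumin, a calcium-binding protein of the distal convoluted tubule, was read 94, 21 and 18 times and was 5.11-fold (3.16 to 8.64) lower, while TRPM6, the magnesium channel of that segment, had a ratio of 0.778 (0.69 to 0.876). TMEM207, a marker of the thick ascending limb, was 3.25-fold (2.36 to 4.54) lower, whereas SLC12A1, the furosemide-sensitive carrier of that limb, had a ratio of 1.08 (1.05 to 1.12).

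Of 62 lysosomal genes, 42 lay below 0, with a median log2 fold of -0.12. CTSB, the cysteine protease cathepsin B, stood at 11534 CPM in IM, 5220 CPM in CM and 7056 CPM in CMT, and was 2.21-fold (2.19 to 2.23) lower in CM. It had the most counts of all called genes, and both castrated pools were below IM. RNASET2, a lysosomal ribonuclease outside the list, was 2.43-fold (2.25 to 2.62) lower.

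Interferon-stimulated genes had the median log2 fold farthest from 0 of the 91 lists of gene function. Of 73 compared, 67 lay above 0, the median log2 fold was 0.46, and 6 were higher while none was lower, beside 49.3% of all compared genes above 0. ISG15, a ubiquitin-like modifier, stood at 25.8 CPM in IM, 82.5 CPM in CM and 108 CPM in CMT, and was 3.2-fold (2.87 to 3.57) higher in CM. MX1, which blocks viral ribonucleoproteins, stood at 37.7 CPM in IM, 105 CPM in CM and 119.8 CPM in CMT, and was 2.78-fold (2.54 to 3.04) higher. CMPK2 and its genomic neighbour IRG6, the table's symbol for viperin, were 3.0-fold (2.31 to 3.94) and 2.52-fold (2.02 to 3.15) higher. IFITM2 was 4.38-fold (3.58 to 5.39) higher and IFITM3 3.57-fold (2.96 to 4.34); these 2 are near-identical membrane proteins that hinder viral entry. Other members were above 0 without being called, such as USP18, at a ratio of 2.2 (1.9 to 2.56), and OAS2, at 1.58 (1.47 to 1.69). IRF9, a transcription factor of the response, had a ratio of 1.44 (1.31 to 1.58). Of 18 T and NK cell markers compared, none was called and 14 lay above 0, and their summed level was 80.9 CPM in IM, 113 CPM in CM and 86.7 CPM in CMT. Their part in the interferon result was not tested.

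Antigen presentation genes held no call. Of 39 genes of the swine MHC and its loading machinery, 26 lay above 0, and the median log2 fold was 0.23. SLA-1, a classical class I gene, stood at 365 CPM in IM, 724 CPM in CM and 542 CPM in CMT, a ratio of CM to IM of 1.98 (1.92 to 2.04), just under the rule. B2M, the class I light chain, had a ratio of 1.2 (1.17 to 1.23), and SLA-DRA, of class II, of 1.25 (1.21 to 1.28). The SLA genes are highly polymorphic, and reads of 1 allele may be counted to another gene.

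Immunoglobulin genes that were called were all higher in CM. Of 10 antigen receptor segments identified by their RefSeq type (a set picked after their values were seen), 7 were higher and none was lower, and their summed level was 91.3 CPM in IM, 1601 CPM in CM and 175 CPM in CMT. All 5 variable segments were among the 7. Most counts came from the constant region LOC102165485, with 70.5 CPM in IM, 1426 CPM in CM and 144 CPM in CMT, 20.2-fold (19.1 to 21.5) higher. IGJ, the joining chain of IgA and IgM, stood at 16.1 CPM in IM, 102 CPM in CM and 21.8 CPM in CMT, and was 6.31-fold (5.55 to 7.2) higher. MZB1, a chaperone of antibody-secreting cells, was read 16, 88 and 20 times and was 4.82-fold (2.81 to 8.79) higher. PIGR, the epithelial receptor that carries polymeric antibodies into urine, stood at 30.02 CPM in IM, 84.4 CPM in CM and 67.2 CPM in CMT, and was 2.81-fold (2.54 to 3.12) higher. IGJ and MZB1 were the 2 called genes of 9 compared markers of B and plasma cells, whose summed level was 329 CPM in IM, 365 CPM in CM and 371 CPM in CMT, much of it from SDC1 and XBP1, which tubule cells also express. TNFRSF17, a plasma cell receptor, was read 18, 69 and 27 times, a ratio of 3.36 (1.98 to 6.0). MS4A1, a defining B cell gene, was too low to compare, with 15, 15 and 4 counts. The number of such cells in the 3 kidneys of a pool is not known, and its part in the result was not tested.

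The called cytokine genes were lower in CM, though their list was not. Among 67 interleukins, interferons, TNF family members and receptors, 3 were lower and none higher, beside 1.52% and 1.2% of all compared genes, while 41 lay above 0 and the median log2 fold was 0.08. Of 37 chemokines and their receptors, 3 were lower and 1 higher, while 23 lay above 0 and the median was 0.16. IL1B was read 79, 15 and 53 times and was 6.01-fold (3.43 to 11.2) lower in CM, its genomic neighbour IL1A 34, 4 and 15 times and 9.7-fold (3.46 to 37.6) lower. TNF was read 98, 20 and 31 times and was 5.59-fold (3.43 to 9.56) lower. The macrophage-attracting chemokine CCL4 stood at 20.2 CPM in IM, 3.23 CPM in CM and 13.8 CPM in CMT, and was 6.25-fold (4.75 to 8.35) lower, its neighbour CCL3L1 was 5.23-fold (3.53 to 7.98) lower, and CCL8, an attractant of monocytes, was 4.97-fold (3.95 to 6.31) lower. CXCL12, which retains CXCR4-bearing cells and is made by stroma, was the only higher chemokine, at 43.4 CPM in IM, 98.8 CPM in CM and 56.3 CPM in CMT, 2.28-fold (2.09 to 2.49). Of 15 macrophage and dendritic cell markers compared, none was called, 8 lay above 0, and their summed level was 161 CPM in IM, 199 CPM in CM and 235 CPM in CMT; CLEC9A was at 0 in all 3 libraries. Neutrophil markers were near or under the level for comparison, with 6 compared, none called, and MMP8 at 0 in all 3 libraries. TNFAIP8, of the TNF-induced genes, was the only called member of 70 inflammasome, TLR and NF-kB genes, at 2.83-fold (2.55 to 3.15) lower.

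Complement, coagulation and other plasma protein genes split. C5, HRG, F10 and SERPIND1 were higher in CM, by 3.16-fold, 2.91-fold, 2.63-fold and 3.92-fold. PROC, the anticoagulant protein C, stood at 254 CPM in IM, 77.1 CPM in CM and 203 CPM in CMT, and was 3.3-fold (3.11 to 3.5) lower. PLG, plasminogen, was read 128, 4 and 16 times and was 36.5-fold (13.9 to 136) lower. ALB, serum albumin, was read 1952, 24 and 404 times and was 92.9-fold (62.2 to 145) lower, and its neighbour AFP was read 194, 6 and 111 times and was 36.9-fold (16.7 to 102) lower. TTR, transthyretin, was 3.22-fold (2.65 to 3.93) higher, and ASGR1, the hepatic asialoglycoprotein receptor, had 0 counts in IM and 40 in CM, higher by at least 11.7-fold by the 3-count floor and 9.07-fold by the interval. Of 22 hepatocyte markers compared, 4 were higher and 4 lower, their summed level was 1281 CPM in IM, 946 CPM in CM and 1258 CPM in CMT, and CPS1, the urea cycle enzyme that marks hepatocytes, was at 0 in all 3 libraries. The markers of liver thus did not move in 1 direction.

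Secreted inhibitors and defence peptides gave further large changes. SLPI, a secreted inhibitor of neutrophil elastase, stood at 343 CPM in IM, 31.1 CPM in CM and 688 CPM in CMT, and was 11-fold (10.1 to 12) lower in CM. SERPINF1, an inhibitor of vessel growth, stood at 70.5 CPM in IM, 19.9 CPM in CM and 66 CPM in CMT, and was 3.54-fold (3.15 to 3.99) lower. SERPINA4 (kallistatin), an inhibitor of tissue kallikrein, was 4.1-fold (3.06 to 5.57) higher. BD123, a beta-defensin, had 75 counts in IM, 0 in CM and 56 in CMT, lower in CM by at least 28.5-fold by the 3-count floor and 22.6-fold by the interval. S100A11, a calcium-binding protein, was read 351, 20 and 235 times and was 20.04-fold (12.8 to 33.2) lower, and ANXA13, an annexin of epithelial membranes, was 3.6-fold (3.08 to 4.23) higher.

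Of 55 genes known from muscle, 5 were lower in CM and 1 was higher, beside 1.52% and 1.2% of all compared genes. ACTC1, cardiac alpha-actin, stood at 156 CPM in IM, 26.7 CPM in CM and 416 CPM in CMT, and was 5.85-fold (5.32 to 6.45) lower. VGLL2, a cofactor of muscle transcription, was read 105, 4 and 212 times and was 29.97-fold (11.4 to 112) lower. TRDN (triadin), of the calcium release complex, was read 135, 6 and 89 times and was 25.7-fold (11.5 to 71.2) lower. The TRDN entry was a numbered identifier typed as miscRNA, and its symbol came from RefSeq. CSRP2, a LIM protein of smooth muscle, was 3.18-fold (2.97 to 3.4) lower and TNNI3, cardiac troponin I, 3.43-fold (2.01 to 6.1), a call lost under scaling by total counts. MYOM2, a sarcomere M-band protein, was the higher gene, at 2.59-fold (2.14 to 3.13). Outside the lists, BVES stood at 31 CPM in IM, 3.54 CPM in CM and 40.3 CPM in CMT, and was 8.76-fold (6.78 to 11.5) lower, and its neighbour POPDC3, a protein of the same cyclic AMP-binding family, was 2.97-fold (2.36 to 3.77) lower. ASB11, an ankyrin repeat gene of muscle, was 7.94-fold (6.39 to 9.97) lower and MYBPHL, of the myosin-binding proteins, 4.07-fold (3.37 to 4.94).

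Markers of muscle fibres ranged from 0 counts to well over the level for comparison. Of 30 markers of skeletal or cardiac muscle in the table, 12 were compared, 4 were lower (ACTC1, TRDN, VGLL2 and TNNI3) and none was higher, and the summed level was 297 CPM in IM, 129.7 CPM in CM and 536 CPM in CMT, with ACTC1 included. The median log2 fold of the 12 was -0.55, and 11 lay below 0. CKM, muscle creatine kinase, stood at 24.9 CPM in IM, 20.5 CPM in CM and 20.8 CPM in CMT, a ratio of 0.823 (0.714 to 0.948), and DES, desmin, which smooth muscle also carries, at 51.3 CPM in IM, 36.2 CPM in CM and 38.8 CPM in CMT, a ratio of 0.707 (0.638 to 0.782). The other 18 markers were too low to compare: MB, MLC2V, MYOT and NEB, which muscle fibres carry in quantity, were at 0 in all 3 libraries, and TTN had 3, 1 and 1 counts. The part of muscle cells in these values was not tested.

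Of 49 genes of growth hormone, IGF and insulin signalling, 3 were higher and none lower, beside 1.2% and 1.52% of all compared genes. IGFBP4, which binds and inhibits IGF, stood at 16.2 CPM in IM, 60.6 CPM in CM and 30.4 CPM in CMT, and was 3.75-fold (3.28 to 4.29) higher in CM. GRB7, an adaptor of growth factor receptors, stood at 58.8 CPM in IM, 128 CPM in CM and 63.7 CPM in CMT, and was 2.17-fold (2.02 to 2.34) higher, and IGFALS, which holds IGF in the circulation, was read 27, 99 and 54 times and was 3.21-fold (2.08 to 5.11) higher. GHR, the growth hormone receptor, had a ratio of 1.31 (1.17 to 1.48). EPOR, the erythropoietin receptor, was read 73, 26 and 48 times and was 3.21-fold (2.02 to 5.23) lower, a call lost under scaling by total counts. DACT2, an inhibitor of Wnt signalling, was read 5, 117 and 12 times and was 20.5-fold (8.54 to 64.3) higher, the only called gene of 38 in the Wnt list. CD44, a hyaluronan receptor and a marker of injured tubules, stood at 159 CPM in IM, 44.6 CPM in CM and 272 CPM in CMT, and was 3.56-fold (3.29 to 3.85) lower.

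Among 25 genes of the hormone systems by which the kidney acts on blood pressure and salt, 0 were called, a count that the overall shares of 1.2% and 1.52% would also give in so short a list. KLK1, tissue kallikrein, had a ratio of 0.691 (0.674 to 0.708). In the list of vitamin D, phosphate, calcium and klotho genes, CYP27A1 was the only called member of 28. CYP27B1, which activates vitamin D, had a ratio of 0.971 (0.851 to 1.11), CYP24A1, which degrades it, of 1.4 (1.28 to 1.54), and KL (klotho) of 0.992 (0.937 to 1.05). Among genes of injury and of oxidant defence, VIM (vimentin) had a ratio of 1.36 (1.31 to 1.4), SPP1 (osteopontin) of 0.875 (0.813 to 0.942), and GPX3, the plasma glutathione peroxidase that the kidney secretes, of 1.38 (1.38 to 1.39). PCK1, the rate-limiting enzyme of glucose production in the proximal tubule, stood at 6824 CPM in IM, 5387 CPM in CM and 13703 CPM in CMT, a ratio of 0.789 (0.783 to 0.796). AGT, HAVCR1 and IGF1 did not reach the level for comparison.

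Large families of basic cell machinery held no called gene. None was called among 136 spliceosome and hnRNP genes, 96 translation factors and aminoacyl-tRNA synthetases, 72 mitochondrial ribosomal proteins, 66 nuclear genes of the respiratory chain, 44 proteasome subunits and 31 genes of the citric acid cycle. The shares over all compared genes were 1.2% higher and 1.52% lower. The same held for 278 zinc finger genes, 153 chromatin enzymes, 61 homeobox genes, 57 laminins, proteoglycans and matrix glycoproteins, 47 matrix proteases and inhibitors, 26 collagens, 62 growth factors of the FGF, EGF, VEGF, PDGF and HGF families and 43 genes of the TGF-beta family. COL1A2, of fibrillar collagen, had a ratio of 0.711 (0.676 to 0.747) and COL4A1, of basement membrane, of 1.01 (0.977 to 1.04).

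A few lists of this kind lay to 1 side of 0. Of 79 cytosolic ribosomal proteins, 74 lay above 0, with a median log2 fold of 0.25, and 3 were higher: RPL31 by 3.66-fold (3.42 to 3.92), RPL23A by 2.13-fold (2.01 to 2.27) and RPS16 by 2.12-fold (2.02 to 2.23). Ribosomal protein genes have many processed copies in the genome, and where their reads were counted is unknown. Mitochondrial carriers leaned low, with 29 of 40 below 0 and a median of -0.20. Immediate early genes, induced within minutes of handling or stress, had a median of -0.21 with 24 of 40 below 0 and none called; FOS had a ratio of 0.785 (0.704 to 0.876). Of 88 heat shock proteins and chaperones, 63 lay below 0, and HSPB6, a small heat shock protein of muscle, was the only called one, 2.69-fold (2.36 to 3.08) higher. Homeobox genes lay above 0 in 45 of 61. These shifts are small beside the 2-fold rule, and whether animals of 1 group would differ from each other as much cannot be read from pools.

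Single genes of regulation and the clock completed the ranking. ARNTL, a core transcription factor of the circadian clock, was read 110, 43 and 47 times and was 2.92-fold (2.04 to 4.26) lower in CM, the only called gene of 23 in the clock list. JAZF1, a zinc finger corepressor, stood at 22.6 CPM in IM, 3.76 CPM in CM and 29.995 CPM in CMT, and was 6.01-fold (4.66 to 7.86) lower. SPOP, a substrate adaptor of a ubiquitin ligase, was read 77, 7 and 45 times and was 12.6-fold (5.81 to 32.3) lower. PLK5, of the polo-like kinases, was read 19, 181 and 287 times and was 8.34-fold (5.19 to 14.2) higher. APRT, which salvages adenine, was read 30, 206 and 10 times and was 6.01-fold (4.09 to 9.14) higher, and UCHL1, a neuronal deubiquitinase, was 3.88-fold (3.26 to 4.63) higher.

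Many called genes belonged to no list: 118 of the 185 higher and 147 of the 235 lower genes. EAF1, a partner of the elongation factor ELL2, stood at 694 CPM in IM, 115 CPM in CM and 660.3 CPM in CMT, and was 6.03-fold (5.76 to 6.32) lower in CM. GPC3, a glypican of the cell surface, stood at 436 CPM in IM, 88 CPM in CM and 491 CPM in CMT, and was 4.96-fold (4.7 to 5.23) lower. COLQ, the collagen tail of acetylcholinesterase, was read 399, 20 and 515 times and was 22.8-fold (14.5 to 37.7) lower. AFAP1L2, an adaptor of SRC signalling, was 4.22-fold (3.8 to 4.69) lower, and PPP1R16B, a phosphatase subunit, 3.4-fold (3.16 to 3.67). SMIM24, a small membrane protein, stood at 19.2 CPM in IM, 93.8 CPM in CM and 53.3 CPM in CMT, and was 4.88-fold (4.33 to 5.52) higher. Of the genes without any count in CM, DCDC2B had 190 counts in IM and 102 in CMT, lower in CM by at least 72.3-fold by the 3-count floor and 58.2-fold by the interval. PTCHD2 had 131 in IM and 118 in CMT, lower in CM by at least 49.9-fold by the 3-count floor and 39.98-fold by the interval. NELL2, a secreted neuronal protein, was read 340, 19 and 6 times and was 20.4-fold (12.9 to 34.4) lower, with both castrated pools far below IM.

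Some called genes were neighbours in the order of compared genes along the chromosomes. Only the 12096 compared genes found in the RefSeq table were ordered, so other genes may lie between neighbours. Genes of unknown chromosome were ordered together, and the run of LOC102165485 and LOC396781 comes from these. Among the ordered genes, 23 of 113 genes called higher (20.4%) had another higher gene as a neighbour, beside 1.59% of the other genes. On the lower side the shares were 33 of 151 (21.9%) and 2.17%. Part of these runs are families of similar copies, such as the CYP4A genes and the metallothioneins. Others are unrelated in sequence, such as METTL6, EAF1 and COLQ, or TNFAIP8 and HSD17B4, or FABP3 and SERINC2. METTL6 was 2.49-fold (2.15 to 2.88) lower and SERINC2, a membrane protein, 3.2-fold (3.0 to 3.43). Whether reads of overlapping or read-through transcripts were counted to both neighbours was not tested, and the strand setting of the counts is unknown.

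**Figure D5:**
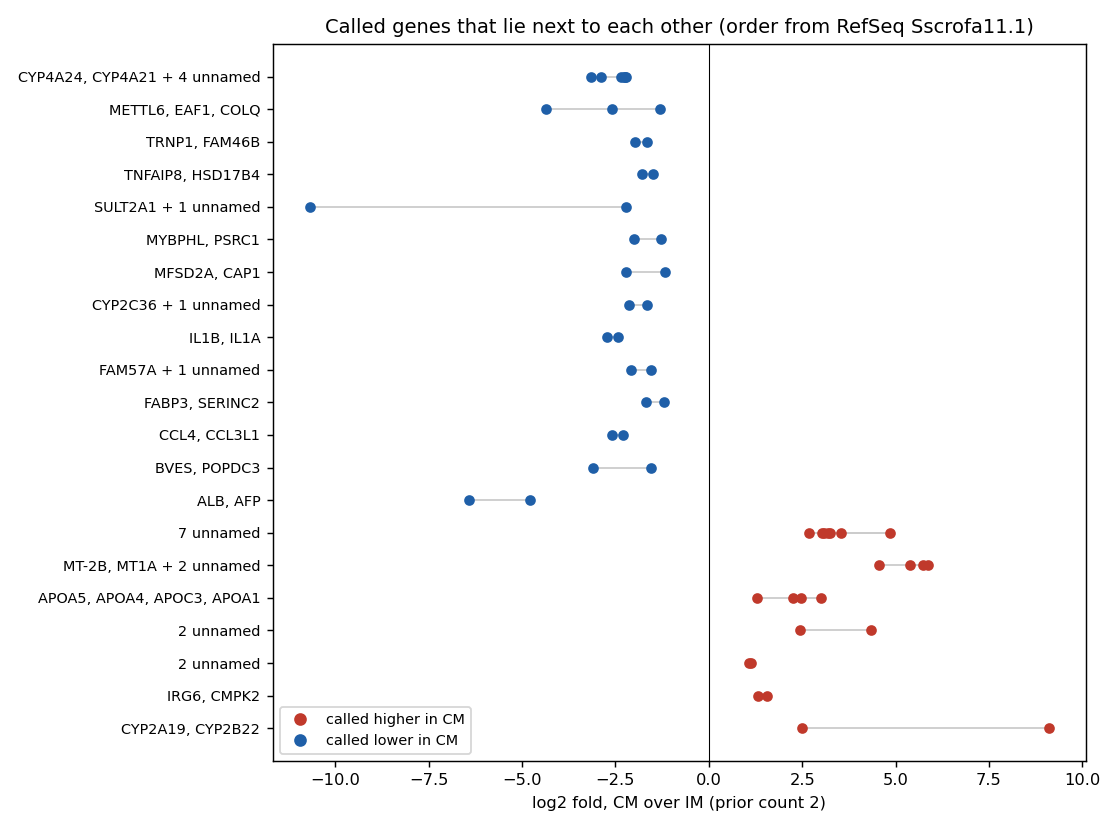
Log2 fold of CM over IM (horizontal axis, prior count of 2) of called genes next to each other in the RefSeq order of compared genes. Each row is 1 run, with red for genes called higher and blue for genes called lower in CM. Genes that were not compared or not found in RefSeq are skipped in this order, and genes of unknown chromosome are ordered together. The longest run on the higher side holds 7 unnamed genes, with antigen receptor segments among them, and the longest on the lower side holds 6 genes, with CYP4A24 and CYP4A21 among them.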

How the data were processed

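Kidney RNA of 3 pools of 3 pigs was sequenced, with 1 column of counts per group. The authors deposited 1 table of raw counts per gene, whole numbers whose totals differ between libraries. RNA was extracted with TRIzol and libraries were made with an Ion Torrent total RNA kit, per the labels' protocols; the design text names an Illumina sequencer and triplicates instead, and neither the platform nor the meaning of the triplicates was settled. FastQC is the tool named in the submitters' processing notes. The program that aligned or counted reads, the strand setting, the build and the gene models are not given in the sources used here. An unnamed column (1 in all) was not used.

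From the counts, TMM factors were computed over the 3 libraries with edgeR 4.0.16, and genes with a mean of at least 1 scaled CPM were kept. The ratio of scaled counts of CM and IM was given an exact 95% interval (Clopper-Pearson, scipy 1.17.1, on the share of the counts that came from CM). A gene was called when this interval lay wholly beyond 2-fold. Log2 folds carry a prior count of 2. A count of 0 was set to 3 counts and the fold written as "at least", beside the lower bound of the interval, which is smaller; 3 counts are 0.181 CPM in IM, 0.159 CPM in CM and 0.227 CPM in CMT. With 1 column per group there is no p-value.

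Of 19902 numbered identifiers, 1556 were given a symbol from RefSeq (assembly Sscrofa11.1), which also gave the order of genes. Ribosomal RNA took between 1.73% and 2.14% of the counts and mitochondrially encoded genes between 8.43% and 8.83%.

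The genes, the 108 lists (91 of gene function, 17 of cell type markers) and the rules were chosen with earlier results of these data known. Named are the first 40 higher and 40 lower genes with a symbol, ordered by the interval bound nearest to 1, up to 4 higher and 4 lower members of each list, the most counted member of a list with no call, and a fixed set of kidney and steroid genes; other names were chosen after their values were seen. List membership of a few pattern-matched names was corrected after the table was read. Alternatives changed the scaling, the filter, the fold, the interval, the depth of CM, the gene types, the symbols and the prior count. Some genes of these lists are not reported here by name.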

Additional observations from a re-analysis of the deposited data

How the results depend on the processing

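The counts of 185 higher and 235 lower genes stayed within 1.5 times under total-count scaling (194 and 224), DESeq2 size factors (185 and 234), TMM factors over IM and CM only (185 and 235), totals without ribosomal RNA and mitochondrially encoded genes (202 and 226), no filter (239 and 297), a 99% interval (155 and 199), CM scaled down to the IM total (183 and 227) and mRNA rows only (146 and 200). They moved further with a minimum mean of 5 CPM (116 higher and 155 lower, fewer genes being compared), a fold of 1.5 (434 and 529) and a fold of 3 (81 and 118). Of 275 single genes recomputed, none reversed, an outcome that these settings could hardly have changed. A called gene lies wholly beyond 2-fold, the scalings differed by far less, and the fold and interval settings leave the ratio unchanged. A gene that was not called did not count as reversed when its ratio crossed 1. Calls of 9 were lost under total-count scaling (among them CAP1, CYP2C33, EPOR, GGT1, PTPRZ1, SPHKAP, TMEM252 and TNNI3), of 1 with DESeq2 size factors (PTPRZ1), of 44 with the 99% interval and of 132 at 3-fold. The median log2 fold of the organic anion and cation transporters went from 0.05 to -0.16 at 5 CPM, and that of complement and coagulation from -0.05 to 0.14. The adipocyte markers went from 0.28 to -0.13 with the table's symbols only (6 genes), and the erythroid and platelet markers from 0.22 to -0.001 without a filter on low counts. No paired analysis was possible because each group is 1 column of counts, and no library could be left out for the same reason. Counting error is the only error in these intervals: spread between pigs, pooling and library preparation are not in them, and low genes such as ST5AR2, APOA4 and IL1A have wide intervals at this depth.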

Other observations

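Genes without a symbol made up a large part of the called set. Of 420 called genes, 193 had no symbol, beside 3798 of all 15472 compared genes. Of these 193, 92 were higher and 101 lower in CM, and 55 were found in the RefSeq table by their identifier. Of 422 genes typed as noncoding RNA, 21 were higher and 9 lower, with a median log2 fold of 0.10, beside 146 higher and 200 lower of 13984 genes typed as mRNA, whose median was -0.01. Of 1049 genes typed as miscRNA, 18 were higher and 26 lower. The difference between the types was not tested.

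Of 82 genes known from nerve cells, 2 were higher and 2 lower, beside the 1.2% and 1.52% of all compared genes, with a median log2 fold of 0.002. NPTX1, a secreted pentraxin of synapses, and UCHL1 were higher in CM, and NELL2 and GRIN2B, a glutamate receptor subunit, were lower. GRIN2B was read 70, 19 and 45 times in IM, CM and CMT, and NPTX1 235, 714 and 82 times. GABBR2, a GABA receptor subunit outside that count, was read 369, 91 and 352 times.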
